A study of Ambystoma mexicanum with 8 samples.

Results

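The 6 transcripts described here are assembled contigs of 5 collagen genes: *col2a1* (TR29959|c0_g1_i1), *col9a1* (TR28962|c0_g1_i1), *col9a2* (TR112|c0_g1_i1 and TR112|c0_g2_i1), *col9a3* (TR28801|c0_g1_i1) and *col23a1* (TR22247|c0_g2_i1). Contig names are written below with a space for the bar. They were chosen by name from a list of transcripts that the study called different between repeatedly amputated and control limbs on these same libraries, and they are 6 of 91843 deposited transcripts. The choice used the values of this contrast, so every difference between the groups given below for these collagens is a description and carries no test.

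Type II collagen, encoded by *col2a1*, forms the fibrils of cartilage and is the collagen by which cartilage is usually recognised. Type IX collagen is a heterotrimer of the products of *col9a1*, *col9a2* and *col9a3*. It sits on the surface of type II fibrils and links them to the rest of the cartilage matrix, which is rich in the proteoglycan aggrecan. Type XXIII collagen, encoded by *col23a1*, is of another kind, a transmembrane collagen that is not a fibril component and is not a cartilage marker.

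RNA came from the limb stumps of 8 wild-type leucistic axolotls (*Ambystoma mexicanum*), 1 limb from each of 8 separate animals. In 4 of them (Multi-amp, columns MR14, MR2, MR5 and MR6) a limb that had failed to regenerate after 5 earlier rounds was amputated for the 6th time, slightly nearer the body than before. In the other 4 (Control1, Control3, Control4 and Control6) a limb of a sibling matched for size and age, never injured until then, was amputated once at the same place. Both were harvested 3 days later from the stump tissue next to the cut, so the sample is a mixture of skin, muscle, connective tissue and skeleton in which fewer cells of a type and less RNA per cell cannot be told apart. Only limbs that had failed to regenerate entered the repeatedly amputated group.

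Summed expected counts ran between 15596527 and 17980271 in the repeatedly amputated libraries and between 16765785 and 18437103 in the control libraries. Libraries of one group differed by more than counting noise. The typical variation between libraries of a group was 41.2% (common dispersion 0.17 over 32757 transcripts with enough counts to be tested). Levels are given in FPKM, which corrects fragment numbers for contig length and library size, when genes are compared with each other. When libraries are compared they are given in counts, the number of fragments that the authors' software assigned to a contig, or in CPM, counts per 1000000 of the scaled library.

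*Col2a1* (TR29959 c0_g1_i1) stood at 1.861, 2.326, 13.874 and 1.252 FPKM in MR14, MR2, MR5 and MR6, against 0.397, 0.226, 0.265 and 0.230 FPKM in Control1, Control3, Control4 and Control6. Every repeatedly amputated limb exceeded every control limb, and MR5 stood far above the other three. In counts these levels were 139, 177, 1121 and 102 in the repeatedly amputated limbs, against 32, 20, 22 and 18 in the control limbs. The main cartilage collagen was thus read in all 8 limbs, also in those at their first amputation. The means were 24.0 ± 31.0 CPM in repeatedly amputated limbs and 1.26 ± 0.3 CPM in control limbs (SD, n = 4 each), a ratio of 19.0. Most of that ratio came from MR5, which made up 73.3% of its group's CPM and exceeded the next limb 6.61-fold. Without MR5 the repeatedly amputated limbs stood at 8.53 ± 2.33 CPM (SD, n = 3) and the ratio was 6.75. The lowest repeatedly amputated limb, MR6, was 3.57 times as high as the highest control limb, Control1. The fitted log2 fold change was 4.24 (SE 0.897) with all 8 libraries and 2.75 without MR5.

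*Col9a1* (TR28962 c0_g1_i1), the α1 chain of type IX collagen, stood at 0.872, 1.353, 12.406 and 0.817 FPKM in MR14, MR2, MR5 and MR6, against 0.021, 0.039, 0.098 and 0.060 FPKM in Control1, Control3, Control4 and Control6. Its counts were 39, 62, 601 and 40 in the repeatedly amputated limbs, against 1, 2, 5 and 3 in the control limbs. The control limbs were close to the limit of detection, with 11 counts over all of them (exact Poisson 95% interval 5.49 to 19.7, counting error only). The groups did not overlap, and the lowest repeatedly amputated limb was 8.28 times as high in CPM as the highest control limb. MR5 made up 81.5% of its group's CPM, 10.1 times the next limb. The ratio of the mean CPM was 74.7 with MR5 and 18.5 without it, and the fitted log2 fold change was 6.18 (SE 1.29) with MR5 and 4.17 without it.

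*Col9a2*, the α2 chain, was assembled as 2 contigs of one read cluster that both fell under the filter on low counts. The contig TR112 c0_g1_i1 had 29, 17, 288 and 10 counts in limbs MR14, MR2, MR5 and MR6, against 2, 0, 0 and 0 counts in limbs Control1, Control3, Control4 and Control6. The contig TR112 c0_g2_i1 had 29, 27, 253 and 10 counts in limbs MR14, MR2, MR5 and MR6, against 3, 2, 4 and 2 counts in limbs Control1, Control3, Control4 and Control6. Both contigs ordered the limbs in the same way at their ends, with MR5 highest and MR6 lowest among the repeatedly amputated limbs, and in both the groups did not overlap. Per length the contigs stood at 3.83 ± 5.92 and 4.22 ± 6.03 FPKM in repeatedly amputated limbs, against 0.0215 ± 0.043 and 0.144 ± 0.0497 FPKM in control limbs (SD, n = 4 each). A control group with at most 3 counts in each library allows only a lower bound on the ratio of mean CPM. It was computed here against 3 counts per library and does not cover the spread between limbs. On that basis TR112 c0_g1_i1 was at least 32.5-fold higher after repeated amputation, or at least 6.97-fold without MR5. For TR112 c0_g2_i1 the ratio of the mean CPM was 32.7, or 8.91 without MR5.

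*Col9a3* (TR28801 c0_g1_i1), the α3 chain, stood at 1.048, 0.681, 9.726 and 0.455 FPKM in MR14, MR2, MR5 and MR6. In Control1 and Control3 it stood at 0.054 and 0.020 FPKM, which are 2 and 1 counts, and in Control4 and Control6 it had 0 counts. The lowest repeatedly amputated limb still exceeded the highest control limb 10.5-fold in CPM. It was at least 45.5-fold higher after repeated amputation, or at least 10.5-fold without MR5, which made up 82.7% of its group's CPM.

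**Figure D1:**
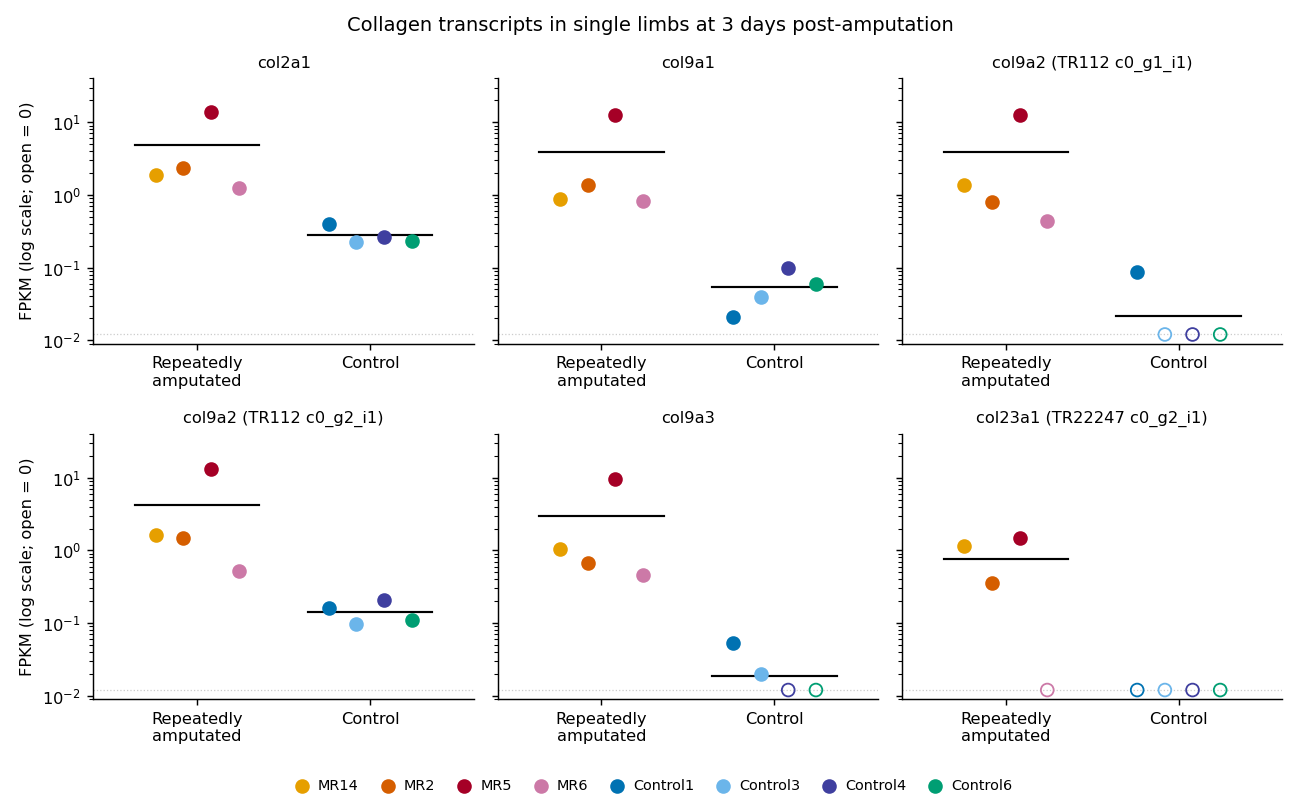
FPKM of each of the 6 collagen contigs (vertical axis, log scale) in the 4 repeatedly amputated limbs (left) and the 4 control limbs (right). Each point is 1 limb, horizontal lines are group means, and open points on the dotted line had 0 counts. MR5 is the highest point in all 6 panels, and the groups overlap only for *col23a1*, where MR6 had 0 counts.

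Over all 6 contigs, MR5 was the highest library in 6 (15.6% of the transcripts with a count) and MR6 the lowest repeatedly amputated library in 6, tied with the control limbs at 0 counts for *col23a1*. Every repeatedly amputated limb exceeded every control limb in 5 of the 6, against 3.09% of the 90919 transcripts with a count. MR5 made up over 70% of its group's CPM in 5 of the 6, against 2.74% of the transcripts with a count in that group. Of the 3 contigs with enough counts to be tested (*col2a1*, *col9a1* and *col9a3*), 0 passed an FDR of 0.05 in edgeR's quasi-likelihood test, which called 0.0122% of all transcripts tested. For all 3 the unadjusted p was under 0.05 (11.1% of all tested). All 3 also passed an FDR of 0.05 with edgeR's exact test (1.14% of all tested). On log2(FPKM + 1) and log2(FPKM + 0.1), limma called 0 of them (0.0336% and 0.0305% of all tested). DESeq2 called *col2a1* (2.88% of the transcripts with an adjusted p) and gave no adjusted p for the other two. Because the names were taken from a list made by a test on these libraries, nothing is read from these counts.

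The balance between type II and type IX collagen is a quantity within each limb. The 4 type IX contigs together held 49.6% (43.6 to 55.7), 42.8% (37.1 to 48.4), 57.9% (56.0 to 59.8) and 43.6% (36.3 to 51.2) of the type II plus type IX counts in limbs MR14, MR2, MR5 and MR6. In Control1, Control3, Control4 and Control6 they held 20.0% (9.05 to 35.6), 20.0% (6.83 to 40.7), 29.0% (14.2 to 48.0) and 21.7% (7.46 to 43.7) of these counts. The brackets are exact Clopper-Pearson 95% intervals, which cover counting error only. The 4 shares of repeatedly amputated limbs were all above the 4 shares of control limbs, but the control shares rest on 8, 5, 9 and 5 type IX counts and the intervals of Control3, Control4 and Control6 reach those of some repeatedly amputated limbs, while that of Control1 ends below them. Per length, the mean FPKM of the 3 type IX chains was 0.614, 0.456, 0.843 and 0.465 times that of *col2a1* in MR14, MR2, MR5 and MR6. In Control1, Control3, Control4 and Control6 this ratio was 0.167, 0.159, 0.253 and 0.167. Relative to the type II chain, the mean of the type IX chains was therefore lower in every control limb than in any repeatedly amputated limb. This did not hold for each contig alone. In Control4, TR112 c0_g2_i1 stood at 0.206 FPKM (4 counts) beside 0.265 FPKM for *col2a1*. In MR6 the levels were 0.517 and 1.252 FPKM, which is a lower ratio. The order within the repeatedly amputated group did not follow *col2a1* throughout, since MR14 had a larger type IX share than MR2 and a lower *col2a1* level. The intervals of the MR14 and MR2 shares overlap, so their order is not beyond counting error.

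**Figure D2:**
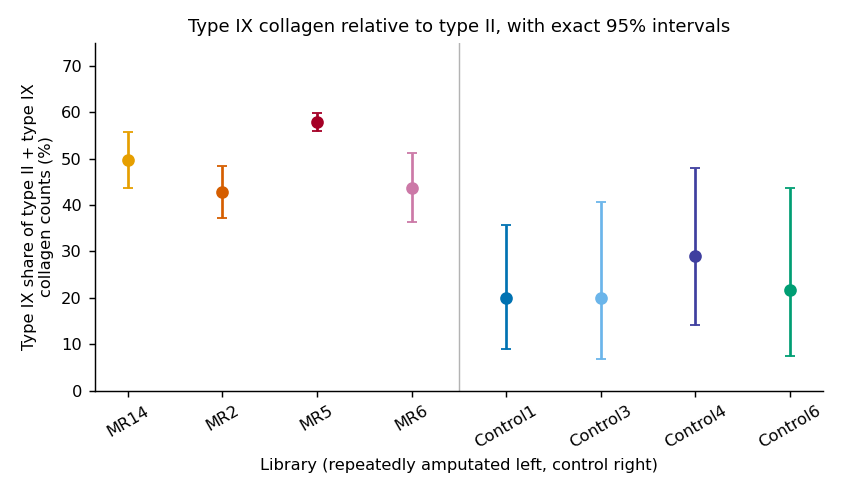
Share of type IX collagen counts among type II plus type IX counts in percent (vertical axis), for the 4 repeatedly amputated limbs (left of the line) and the 4 control limbs (right). Points are single limbs and bars are exact 95% intervals of the counts. The repeatedly amputated limbs lie between 42.8% and 57.9% and the control limbs between 20.0% and 29.0%, with wide intervals in the control limbs.

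Single chains were compared as ratios of FPKM, and a ratio was given only where both chains, and for *col9a2* each of its contigs, had more than 3 counts. *Col9a1* to *col2a1* stood at 0.469 (0.32 to 0.673), 0.582 (0.428 to 0.781), 0.894 (0.808 to 0.988) and 0.653 (0.441 to 0.949) in MR14, MR2, MR5 and MR6. The interval of MR5 lay above those of MR14 and MR2 and met that of MR6, so the limb with the most collagen transcript also had the highest ratio, beyond counting error for MR14 and MR2 only. Among the control limbs only Control4 had enough counts for this ratio, which was 0.37 (0.109 to 1.0) and thus reached across the whole range of the repeatedly amputated limbs.

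Within type IX collagen, *col9a2* (the mean of its contigs) to *col9a1* stood at 1.73 (1.13 to 2.67), 0.849 (0.563 to 1.27), 1.05 (0.929 to 1.18) and 0.582 (0.322 to 1.02) in MR14, MR2, MR5 and MR6, with a geometric mean of 0.972. *Col9a3* to *col9a1* stood at 1.2 (0.754 to 1.92), 0.503 (0.306 to 0.808), 0.784 (0.689 to 0.891) and 0.557 (0.305 to 0.984), with a geometric mean of 0.717. MR14 had the highest value of both ratios, with an interval above 1 for the first and across 1 for the second. *Col9a3* to *col9a2* stood at 0.695 (0.452 to 1.06), 0.593 (0.35 to 0.985), 0.75 (0.657 to 0.855) and 0.957 (0.483 to 1.89) in MR14, MR2, MR5 and MR6, with a geometric mean of 0.737. Its spread was smaller than that of the other ratios (SD 0.288 on the log2 scale, n = 4, against 0.655 for *col9a2* to *col9a1* and 0.567 for *col9a3* to *col9a1*). The intervals of the 4 limbs overlapped for this ratio, and whether its smaller spread goes beyond counting error was not tested. The *col9a2* contigs stood at 0.844, 0.532, 0.958 and 0.839 of each other (TR112 c0_g1_i1 over TR112 c0_g2_i1), a geometric mean of 0.775. Across limbs whose *col9a1* level ran between 0.817 and 12.406 FPKM, the 3 chains of the heterotrimer thus stayed within a ratio of 0.503 to 1.73 of each other. That range holds only with *col9a2* as the mean of its contigs. With *col9a2* as their sum, the geometric means were 1.94 for *col9a2* to *col9a1* and 0.369 for *col9a3* to *col9a2*. In MR5, where counts were highest and the intervals narrowest, the order per length was *col2a1*, *col9a2*, *col9a1* and *col9a3*, and *col9a2* could not be separated from *col9a1*. No interval was computed for *col9a2* to *col2a1*, which stood close in MR5 (12.692 and 13.243 FPKM for the *col9a2* contigs, 13.874 FPKM for *col2a1*).

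**Figure D3:**
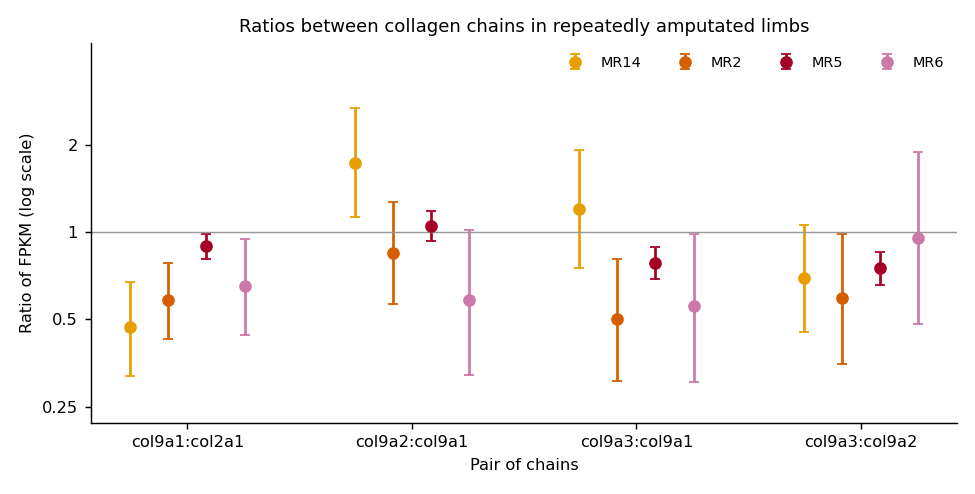
Ratios of FPKM between pairs of collagen chains (vertical axis, log scale) in the 4 repeatedly amputated limbs. Points are single limbs, bars are intervals from exact 95% binomial limits of the counts, and *col9a2* is the mean of its contigs. Most ratios lie at or under 1, and MR14 stands highest for *col9a2* to *col9a1* (1.73) and *col9a3* to *col9a1* (1.2).

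The assembly placed further contigs in the read clusters of these collagens. Names came only from the study's list of called transcripts, which holds TR29959 c1_g1_i1 without a protein name. The others, including those of the *col23a1* cluster, are not on that list, so whether they match a protein is not known here. TR29959 c1_g1_i1, a short contig of the *col2a1* cluster, had 4, 11, 74 and 7 counts in limbs MR14, MR2, MR5 and MR6, against 1, 2, 2 and 1 counts in limbs Control1, Control3, Control4 and Control6. Its order of the limbs matched that of *col2a1* at the top, with MR5 making up 77.7% of its group's CPM, and the groups did not overlap. It was at least 9.01-fold higher after repeated amputation, or at least 2.68-fold without MR5. In the *col9a3* cluster, TR28801 c0_g2_i1 had at most 4.8 counts in any limb and TR28801 c1_g1_i1 had 11 counts in MR5 and at most 1 elsewhere. Summing contigs of one cluster changed little for these cartilage collagens, at a log2 fold change of 4.23 for *col2a1* and 7.3 for *col9a3*. The *col9a3* sum took in TR28801 c0_g2_i1 but not TR28801 c1_g1_i1. The summed *col9a2* contigs had 58, 44, 541 and 20 counts in limbs MR14, MR2, MR5 and MR6, against 5, 2, 4 and 2 in Control1, Control3, Control4 and Control6. Their ratio of mean CPM was 58.0, and the fitted log2 fold change was 5.8 (SE 1.29).

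*Col23a1* (TR22247 c0_g2_i1) differed from the cartilage collagens in its distribution over limbs. It had 57.16, 18.01, 78.95 and 0 counts in limbs MR14, MR2, MR5 and MR6, against 0 counts in each of the 4 control limbs. In FPKM these were 1.166, 0.360, 1.488 and 0 in the repeatedly amputated limbs. MR6 thus had no counts, like the control limbs, and MR5 exceeded MR14 only 1.36-fold, where for the type II and IX contigs it exceeded the next limb 6.61-fold to 10.1-fold. As a single contig its mean CPM was at least 14.6-fold higher after repeated amputation, or at least 9.52-fold without MR5. This bound is of the mean only (2.43 ± 2.28 CPM, SD, n = 4) and does not hold for MR6. The name *col23a1* also matched a second contig, TR29769 c10_g1_i1, which had 4 counts in all, so the name is less certain than those of the other collagens.

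The counts of TR22247 c0_g2_i1 were not whole numbers in MR14, MR2 and MR5, which happens when fragments that fit several contigs are divided among them. They added up to whole numbers (within 0.011) with those of a neighbour in the same assembled component, TR22247 c0_g3_i1, in all 8 limbs. That neighbour had 74.84, 74.99, 47.05 and 105 counts in limbs MR14, MR2, MR5 and MR6, against 115, 57, 109 and 63 counts in limbs Control1, Control3, Control4 and Control6. It thus had counts in every limb, including those where the *col23a1* contig had 0. Its log2 fold change was -0.04 (SE 0.31).

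The sum of the *col23a1* contig and its neighbour was 132, 93, 126 and 105 counts in limbs MR14, MR2, MR5 and MR6, against 115, 57, 109 and 63 counts in limbs Control1, Control3, Control4 and Control6. In CPM the sum stood at 7.05 ± 1.36 in repeatedly amputated limbs and 4.75 ± 1.65 in control limbs (SD, n = 4 each), a ratio of 1.48 with overlapping groups. The fitted log2 fold change of the sum was 0.57 (SE 0.274). The share of the sum given to the *col23a1* contig was 43.3% (34.6 to 52.1) in MR14, 19.4% (11.9 to 28.9) in MR2, 62.7% (53.6 to 71.1) in MR5 and 0% (up to 3.45) in MR6. It was 0% in each control limb, with upper limits between 3.16% and 6.27%. The sum was formed after the values were seen, and whether the 2 contigs are alternative forms of one transcript or separate genes was not tested. The remaining 3 contigs of the cluster overlapped between the groups, with log2 fold changes of 0.61 (SE 0.543), 0.79 (SE 0.335) and 0.52 (SE 0.442), and FDR values of 0.739, 0.435 and 0.728 in edgeR's quasi-likelihood test.

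**Figure D4:**
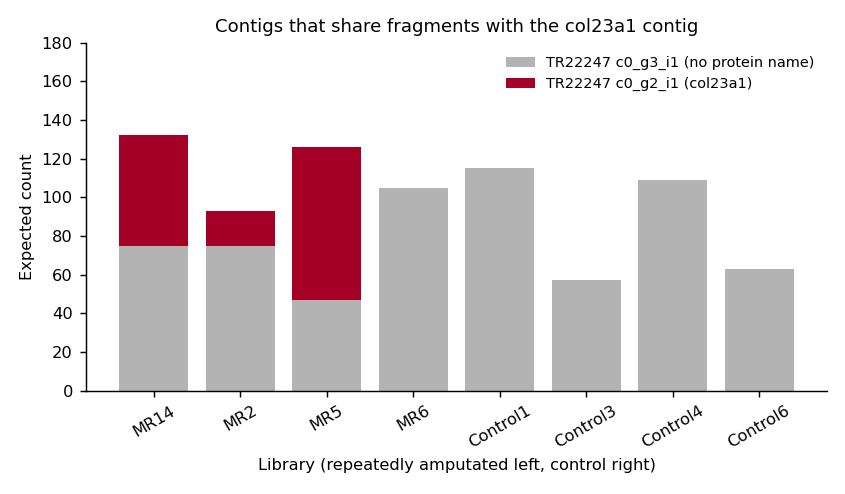
Expected counts of the *col23a1* contig TR22247 c0_g2_i1 (red) stacked on those of its neighbour TR22247 c0_g3_i1 (grey), for the 4 repeatedly amputated limbs and, to their right, the 4 control limbs. The stacks reach between 93 and 132 counts in repeatedly amputated limbs and between 57 and 115 in control limbs. The *col23a1* part is present only in MR14, MR2 and MR5.

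Other cartilage genes were read from a list of 7 contigs named for aggrecan, chondromodulin-1, CLC3A and CILP1, all of them under the filter on low counts. The list comes from the study's own table of these libraries and is not independent of the contrast. An aggrecan contig (PGCA, TR30740 c0_g1_i1), the large proteoglycan of cartilage, had 9, 14, 147 and 3 counts in limbs MR14, MR2, MR5 and MR6, against 2, 0, 0 and 0 counts in limbs Control1, Control3, Control4 and Control6. A chondromodulin-1 contig (LECT1, TR23600 c0_g1_i1), a cartilage protein that inhibits vessel growth, had 5, 10, 70 and 4 counts in limbs MR14, MR2, MR5 and MR6, against 0, 1, 2 and 0 counts in limbs Control1, Control3, Control4 and Control6. Both had MR5 on top and MR6 lowest of their group, as the collagens did. MR5 held 85.3% of the CPM of the repeatedly amputated group for this aggrecan contig and 79.1% for this chondromodulin-1 contig. The aggrecan contig was at least 16.3-fold higher after repeated amputation, or at least 3.21-fold with MR5 left out. For the chondromodulin-1 contig the bounds were 8.37-fold with MR5 and 2.33-fold without it.

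The other 5 cartilage contigs were read as follows. Another aggrecan contig, TR30740 c2_g1_i1, had 2, 2, 12 and 2 counts in limbs MR14, MR2, MR5 and MR6, and the aggrecan contig TR18165 c0_g1_i1 had 2, 3, 10 and 3, both against 0 counts in every control limb. CLC3A (TR10733 c0_g1_i1), a C-type lectin, had 3, 4, 22 and 0 counts in limbs MR14, MR2, MR5 and MR6, against 0 in every control limb. A further chondromodulin-1 contig (LECT1, TR23600 c1_g1_i1) had 1, 3, 37 and 4 counts in limbs MR14, MR2, MR5 and MR6, against 1, 0, 0 and 0 in Control1, Control3, Control4 and Control6. The lower bounds for TR30740 c2_g1_i1, TR18165 c0_g1_i1, CLC3A and TR23600 c1_g1_i1 were 1.69-fold, 1.68-fold, 2.73-fold and 4.22-fold. Without MR5 they were 0.736-fold, 0.976-fold, 0.869-fold and 0.967-fold, so that no rise was bounded for these contigs. CILP1 (TR24911 c1_g1_i1), a matrix protein of the cartilage intermediate layer, was spread more evenly, at 9, 8, 28 and 18 counts in limbs MR14, MR2, MR5 and MR6, against 6, 2, 3 and 2 counts in the control limbs. MR5 held 45.3% of the CPM of the group for CILP1, which had a ratio of mean CPM of 5.46, or 3.98 without MR5. Summed over the 7 contigs, the list stood at 1.98, 2.65, 20.5 and 2.01 CPM in MR14, MR2, MR5 and MR6, against 0.476, 0.157, 0.286 and 0.118 CPM in Control1, Control3, Control4 and Control6. In 6 of the 7 every repeatedly amputated limb was above every control limb in CPM, against 3.09% of all transcripts with a count. The list was, however, drawn from transcripts the study had called on this contrast. For TR23600 c1_g1_i1 the separation rests on 1 count each in MR14 and Control1 (0.064 and 0.0528 CPM), set apart by library scaling only. For TR30740 c0_g1_i1 it rests on 3 counts in MR6 against 2 in Control1. The list contigs were near the limit of detection in the control limbs, and in Control6 only CILP1 had counts (2). With *col2a1*, at 18 to 32 counts in the control limbs, the labelled tissue, limb stump, carried cartilage transcripts in every library.

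Proteins that process collagen had another order of the limbs. PCOC2 (TR4356 c0_g2_i1), an enhancer of the protease that trims procollagen, stood at 5.06, 5.24, 9.17 and 17.8 CPM in MR14, MR2, MR5 and MR6, against 3.65, 2.31, 2.86 and 2.12 CPM in Control1, Control3, Control4 and Control6. P3H2 (TR3370 c0_g2_i1), a prolyl 3-hydroxylase of collagen chains, stood at 1.98, 3.07, 3.77 and 5.27 CPM in MR14, MR2, MR5 and MR6, against 1.11, 1.47, 0.972 and 0.353 CPM in Control1, Control3, Control4 and Control6. Both were highest in MR6, the limb with the least type II and IX collagen of its group, and lowest of that group in MR14. Their log2 fold changes were 1.76 (SE 0.432) and 1.84 (SE 0.445). Neither passed an FDR of 0.05 in edgeR's quasi-likelihood test (FDR = 0.281 each), which called 0.0122% of all tested. Both did in edgeR's exact test (FDR = 0.0322 and 0.025), which called 1.14% of all tested. Their names come from the study's list of transcripts called on these libraries, so nothing is read from these calls.

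Markers of other cell types were read in the same way, from lists of the same origin. Over the 7 lists with 140 contigs, 77 had enough counts to be tested, and 0 of them passed an FDR of 0.05 in edgeR's quasi-likelihood test. For all 77 the unadjusted p was under 0.05 (11.1% of all tested), 26 passed with edgeR's exact test (1.14%), 50 with DESeq2 (2.88%) and 0 with limma on either FPKM scale (0.0336% and 0.0305%). The lists hold transcripts the study had already called on this contrast, so nothing is read from these counts. The median log2 fold change over all transcripts tested was -0.0065. Connective tissue matrix (asporin, thrombospondin-4, MXRA5, fibrillin-1 and CTGF) had 0 of 5 tested contigs called by the quasi-likelihood test in either direction and a median log2 fold change of 2.34. Its summed level stood at 187, 135, 334 and 194 CPM in MR14, MR2, MR5 and MR6, against 63.3, 53.8, 59.8 and 31.7 CPM in the control limbs. Laminins, the basement membrane proteins, had 0 of 4 called and a median of 1.93. Their sum stood at 230, 257, 688 and 1190 CPM in MR14, MR2, MR5 and MR6, against 191, 153, 143 and 158 CPM in the control limbs. For this sum MR6 and not MR5 was highest. LAMB3 and LAMA3 made up most of it, with 929 and 258 CPM in MR6. LAMA2 and LAMB1 were instead highest in MR5 (2.32 and 4.34 CPM, against 0.947 and 1.95 CPM in MR6).

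The muscle sarcomere list, with 101 contigs of myosins, troponins, titin and other filament proteins, had 0 of 52 tested contigs called in either direction and a median log2 fold change of 4.19. Its summed level was 9654, 2616, 14024 and 586 CPM in MR14, MR2, MR5 and MR6, against 78.4, 269, 1218 and 87.5 CPM in Control1, Control3, Control4 and Control6. MR5 was the highest library and MR6 the lowest repeatedly amputated library for muscle as they were for the cartilage collagens. The groups overlapped for muscle, with MR6 below Control4. For *col2a1* Control4 stood with the other control limbs at 1.26 CPM. For *col9a1* (0.286 CPM) and TR112 c0_g2_i1 (0.229 CPM) Control4 was the highest control limb, and for TR112 c0_g1_i1 and *col9a3* it had 0 counts. MR14 stood above MR2 in muscle and below it in *col2a1* and *col9a1* (2.5 against 3.73 CPM). In both *col9a2* contigs (1.86 against 1.02 CPM and 1.86 against 1.63 CPM) and *col9a3* (2.53 against 1.58 CPM) MR14 was above MR2, as in muscle. For the cartilage list, 3 of 7 contigs were at 0 counts in all control limbs, and for the muscle list 6 of 101. The share of all transcripts at 0 in the control limbs was not computed, so nothing is read from these numbers. The epidermal and mucous list (keratins, transglutaminases and mucins) had 0 of 6 called in either direction and a median log2 fold change of -0.58, with 3 of the 6 above 0. Its summed level stood at 184 to 564 CPM in repeatedly amputated limbs, against 938 to 3987 CPM in control limbs. Of its 11 contigs, 3 were at 0 in all repeatedly amputated limbs and 2 did not overlap between the groups. The matching shares over all transcripts were not computed, so nothing is read from these counts either. The immunoglobulin list had 0 of 8 called and a median of -2.64, at 159 to 292 CPM in repeatedly amputated limbs, against 539 to 923 CPM in control limbs. The summed levels of the connective tissue, laminin, epidermal and immunoglobulin lists thus differed between the groups without overlap. That of the muscle list differed with overlap, and the single epidermal contigs went in both directions. These lists hold transcripts called on this contrast, so nothing is read from the separation of the sums. Their part in the collagen differences was not tested. How much skeleton each harvested piece held cannot be read from the labels, and its part was not tested either.

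**Figure D5:**
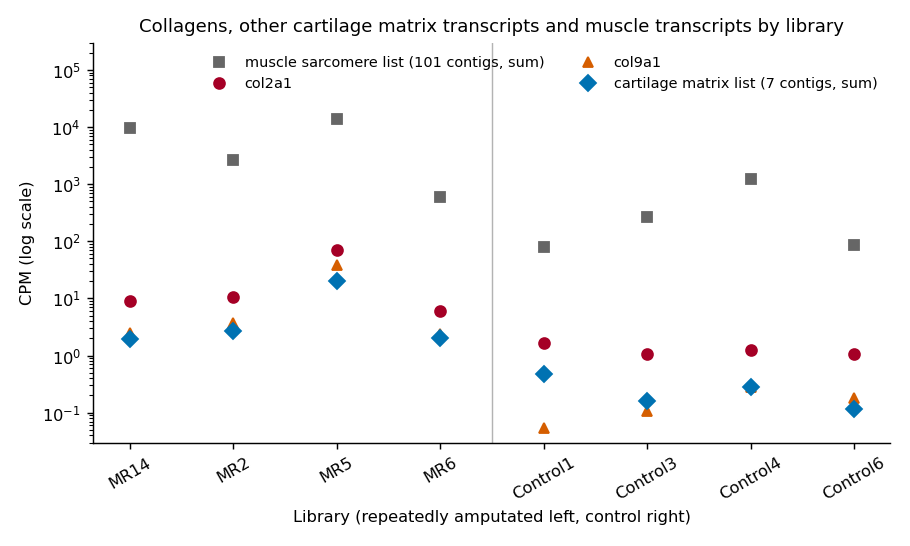
CPM (vertical axis, log scale) of *col2a1*, *col9a1*, the summed cartilage matrix list (7 contigs) and the summed muscle sarcomere list (101 contigs) in the 4 repeatedly amputated limbs (left of the line) and the 4 control limbs (right). Each point is 1 library. All are highest in MR5, and Control4 has 1218 CPM for muscle, above the 586 CPM of MR6. *Col2a1* is below 2 CPM in every control limb, and Control4 is the highest control limb for *col9a1* (0.286 CPM).

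The transcripts with the profile most like the collagens were searched among 256 tested contigs with a protein name. Names came only from the study's list of transcripts called on this contrast, so no other transcripts entered the search. The measure was Pearson's r of log2 CPM over the 8 libraries with the mean profile of *col2a1*, *col9a1* and *col9a3*. These r values share the libraries and are largely set by the contrast between the groups, with a median of 0.831 over all 256. The 10 nearest ran between 0.944 and 0.988 and were IL6RB, FOSL2, NEXN, CTGF, SIA7B, MYOME, VGLL3, MAP4, E41L2 and SPTB2. The nearest was 1 of 4 isoform contigs of an assembled IL6RB gene (TR25217 c0_g1_i2, r = 0.988). IL6RB is a signalling subunit shared by receptors of the interleukin-6 family. This isoform had 19.46, 29.45, 177.9 and 26.38 counts in limbs MR14, MR2, MR5 and MR6, against 0 counts in all control limbs. Its counts were not whole, and the sum over the 4 isoforms, formed after the values were seen, was 508, 469, 778 and 723 in limbs MR14, MR2, MR5 and MR6, against 564, 464, 535 and 436 in limbs Control1, Control3, Control4 and Control6. The gene as a whole was thus present in every control limb, and the groups overlapped in counts. FOSL2 (r = 0.977), a transcription factor of the AP-1 family, had 215, 224, 539 and 136 counts in limbs MR14, MR2, MR5 and MR6, against 94, 114, 98 and 84 in Control1, Control3, Control4 and Control6. CTGF (r = 0.972), a matricellular protein of connective tissue, had 1291, 1319, 3534 and 1070 counts in limbs MR14, MR2, MR5 and MR6, against 555, 549, 442 and 246 in Control1, Control3, Control4 and Control6. The collagen profile peaks in MR5, so the search favours contigs that are highest there. MR5 was highest for the IL6RB isoform, FOSL2 and CTGF, at 6.3-fold, 2.46-fold and 2.69-fold over the next limb in CPM. These factors were smaller than for the type II and IX contigs (6.61-fold to 10.1-fold) and larger than for *col23a1* (1.36-fold). The cartilage contigs had too few counts to enter this search. The first contig of the muscle sarcomere list came at rank 31, and the median r of the 52 contigs of that list was 0.826. The list is not complete for muscle, since it does not hold NEXN, which came at rank 3 (r = 0.972). The collagen processing proteins P3H2 (r = 0.757) and PCOC2 (r = 0.721) came at ranks 207 and 214.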

How the data were processed

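The authors assembled paired-end reads with Trinity, named transcripts with Trinotate and deposited RSEM expected counts per transcript, not normalized, and FPKM scaled between libraries by TMM. They applied an FPKM threshold of 2 to the initial assembly. Base calling used CASAVA 1.8.2 per the submitters' processing notes; other versions are not given in the sources used here. No genome was used. RSEM divides shared fragments, so counts of similar contigs are uncertain, and 91.5% of values were whole (within 1e-09). Library totals ran from 15596527 to 18437103.

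Protein names came from the study's table, whose mean FPKM values were matched to the deposited ones (tolerance 1e-06): of 912 entries, 892 matched 1 contig and 20 several. Columns name the group but not the animal. No per-sample column was left unused.

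Counts were rounded, filtered by filterByExpr, scaled by TMM and compared with edgeR 4.0.16 (quasi-likelihood F-test, robust, R 4.3.3) with Benjamini-Hochberg adjustment over 32757 transcripts. The study does not name its edgeR test. Alternatives were edgeR's exact test, DESeq2 1.42.0, limma 3.58.1 on FPKM with pseudocounts of 1 and 0.1, other scalings and filters, and each library left out. Log2 CPM for profiles used a prior count of 2. Tested on simulated data for this contrast (32757 transcripts, 200 changed 4-fold), the quasi-likelihood test recovered 62.5% and made 10 false calls. The exact test recovered 77% (79 false) and DESeq2 78.5% (97 false). No FPKM were simulated, so limma was run on log2(CPM + 1), where it recovered 63% (16 false). The changed transcripts were drawn from those with a mean above 1 CPM. With none changed the tests made 0, 30, 40 and 0 calls, in the order given.

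The collagens and lists were chosen with earlier results of these data known. Genes named are the collagens, other contigs of their read clusters, entries of the cartilage and collagen processing lists, and the 10 nearest profiles. Some entries of the other lists are also named. No sequences are shown, since none of these contigs was in the reference table used.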

Additional observations from a re-analysis of the deposited data

Results flagged for a closer look

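In groups of 4 libraries, the gap between an extreme library and its nearest neighbour was divided by the range of the group, and values above Dixon's 95% critical value for 4 were noted. Of 51 groups examined, 17 passed. Chance gives about 1 in 20 for normally distributed values. That rate does not hold here, since many of the groups are low counts of transcripts chosen on this contrast. Where 1 library has a count or 2 and the rest have 0, the value is always 1.0. Groups with 0 counts in all 4 libraries were among the 51 and could not pass. The number that passed is therefore not set against chance. In 12 of the 17 the library was MR5, the highest of the repeatedly amputated limbs. These were *col2a1* (0.928), *col9a1* (0.961), the *col9a2* contigs TR112 c0_g1_i1 (0.928) and TR112 c0_g2_i1 (0.917), *col9a3* (0.941) and the unnamed contig TR29959 c1_g1_i1 of the *col2a1* cluster (0.908). The others were the summed cartilage matrix list (0.964), the aggrecan contigs TR30740 c0_g1_i1 (0.927), TR30740 c2_g1_i1 (0.985) and TR18165 c0_g1_i1 (0.895), and the chondromodulin-1 contigs TR23600 c0_g1_i1 (0.912) and TR23600 c1_g1_i1 (0.924). These 12 are not independent, since they come from 1 limb and from genes of 1 tissue. *Col23a1* was not among them.

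In the control limbs, Control1 stood apart with 1 or 2 counts against 0 for the *col9a2* contig TR112 c0_g1_i1, the aggrecan contig TR30740 c0_g1_i1 and the chondromodulin-1 contig TR23600 c1_g1_i1 (1.0 each). Control4 stood apart for the summed muscle sarcomere list (0.833) and Control3 for the summed epidermal and mucous list (0.843).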

How the results depend on the processing

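The number of transcripts called at an FDR of 0.05 was 4 with the quasi-likelihood test. It was 374 (edgeR's exact test), 759 (DESeq2), 21 with no filter, 9 with at least 10 summed counts and with limma 11 on log2(FPKM + 1) or 10 on log2(FPKM + 0.1). With each library left out it ran from 2 (without MR5) to 14 (without Control1). The list contigs called were 0, or 26 with the exact test and 0 to 1 with a library left out (1 without Control4, TGM3). The log2 fold changes of *col2a1*, *col9a1* and *col9a3* were 4.24, 6.18 and 7.29. They were 1.73, 1.61 and 1.41 on log2(FPKM + 1) and 3.04, 3.72 and 3.67 on log2(FPKM + 0.1). The added constant shrinks changes of low transcripts. The limma fits also average log values of single libraries, so that MR5 weighs less than in the group means that edgeR compares. The part of each in the smaller values was not tested. With a library left out, the edgeR log2 fold changes of these collagens ran from 2.75 to 4.57, 4.17 to 6.64 and 5.19 to 8.19, lowest without MR5. Lower bounds then ran from 6.97 to 42.1 (*col9a2* TR112 c0_g1_i1), 10.5 to 58.5 (*col9a3*) and 9.52 to 19.5 (*col23a1*). For *col23a1* the ratio was 1.48 with the neighbouring contig added, an alternative chosen after seeing the data. As ratios of counts, *col9a1* to *col2a1* was 0.379, *col9a2* to *col9a1* 0.415 and *col9a3* to *col9a2* 1.46, since contig lengths differ. With *col9a2* as the sum of its contigs, *col9a2* to *col9a1* was 1.94 and *col9a3* to *col9a2* 0.369. With a limb left out, *col9a1* to *col2a1* ran from 0.562 to 0.698, *col9a2* to *col9a1* from 0.802 to 1.15, *col9a3* to *col9a1* from 0.603 to 0.807, *col9a3* to *col9a2* from 0.676 to 0.793 and the *col9a2* contigs from 0.723 to 0.879. The direction of no fold change reversed, but *col9a2* to *col9a1* and *col9a3* to *col9a2* each crossed 1, so which chain of these pairs is higher depends on the measure. Except as stated, the cause was not tested. No paired analysis was possible because the labels pair no limbs and the columns of the 2 groups share only the number 6.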
